A study of Mus musculus with 8 samples.

Results

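The connecting tubule joins the distal convoluted tubule to the collecting duct. Nuclei of this segment were picked from 8 single-nucleus libraries of mouse kidney by 5 genes, and they were 2117 of 81391 nuclei that passed quality control. A nucleus was a member when it held at most 1 unique molecular identifier (UMI, 1 captured transcript) of Slc12a3, at least 2 of Slc8a1, and at least 1 UMI of 2 or more of the genes Trpv5, Calb1 and Scnn1g. To pass, a nucleus needed 500 genes and 800 UMIs, of which mitochondrial transcripts could make up 2% at most. The libraries came from male mice on the C57BL/6J background, 2 mice in each of 4 groups, with 1 library a mouse. Ctrl mice were Bmal1lox/lox. Their cKOt littermates were Bmal1lox/lox/Pax8-rtTA/LC-1, in which doxycycline switches on Cre recombinase through a Pax8-driven activator and inactivates Bmal1 (Arntl) along the renal tubule, not only in this segment. Both genotypes drank 2 mg/ml doxycycline with 20 mg/ml sucrose for 2 weeks from 8 weeks of age, lived in 12 h light and 12 h dark, and were killed at 14 weeks. Kidneys were taken at zeitgeber time 4 (ZT4, in the light phase) or ZT16 (in the dark phase). The light schedules of the boxes were shifted so that every mouse was killed at the same hour of the day.

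Cells of this segment take up calcium through an apical channel (Trpv5), carry it on calbindins (Calb1, S100g) and pass it to the blood through a sodium-calcium exchanger (Slc8a1) and calcium pumps (Atp2b family). They also absorb sodium through the epithelial sodium channel (subunits Scnn1a, Scnn1b and Scnn1g) under aldosterone, which binds the mineralocorticoid receptor Nr3c2, while Hsd11b2 keeps cortisol-type steroids away from that receptor. Slc12a3, the thiazide-sensitive cotransporter, marks the distal convoluted tubule upstream, and Aqp2, the vasopressin-regulated water channel, marks principal cells downstream.

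Each library gave between 200 and 335 members, 1.93% to 3.14% of its nuclei. A member held a median of 4823 UMIs and 2189 genes, and the sums over members ranged from 997049 to 1812928 UMIs a library. No barcode was shared between the members of any pair of libraries. The 5 rule genes fix the following values, which are a description. In 692 members all of Trpv5, Calb1 and Scnn1g had a UMI, and 1111 had Calb1 and Scnn1g without Trpv5. At the Slc8a1 limit, 87 members held exactly 2 UMIs and 75 nuclei that met the other conditions held 1. At the Slc12a3 limit, 425 members held 1 UMI and 89 nuclei just outside held 2. With 2 of the 3 markers positive there were 1425 members, and 2946 nuclei that had only 1 of them stayed outside.

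In sums over members, as UMIs of the gene per 1000000 UMIs (CPM), Slc8a1 stood at 38502 CPM ± 12090 (SD, n = 8), Trpv5 at 159 ± 30.9, Calb1 at 967 ± 287 and Scnn1g at 557 ± 66.7. The neighbours were of 2 kinds. Nuclei that met the rule but held at least 2 Slc12a3 UMIs (808) are called DCT2-like here. Nuclei with at least 2 Aqp2 UMIs and at most 1 UMI each of Slc12a3 and Slc8a1 (492) are called principal-like. These also needed a UMI of at least 2 of the genes Scnn1g, Fxyd4 and Aqp3. Hsd11b2, a gene outside the rule, had 346 ± 110 CPM in members and 15.9 ± 3.65 in all other nuclei. With every nucleus thinned to 1500 UMIs, it had a UMI in 41.3% of members, 23.2% of principal-like and 8.58% of DCT2-like nuclei. By itself it therefore does not tell members from principal cells. Most marker lists of other kidney cells were lower in members than in all other nuclei, but not absent. The summed level of 8 proximal tubule genes was 1168 to 2007 CPM in members and 4869 to 6868 CPM in all other nuclei, and none of the 8 was at 0. For 7 thick ascending limb genes it was 567 to 1716 CPM against 3464 to 5723 CPM, and for 6 endothelial genes 100 to 253 CPM against 664 to 1023 CPM. Intercalated cell genes were the exception, with a summed level of 762 to 1191 CPM over 12 genes in members and 439 to 566 CPM in all other nuclei. The highest of them in members were Rhcg, Atp6v1b1 and Car2. A UMI each of at least 2 of Slc4a1, Slc26a4, Atp6v1g3 and Slc4a9 was found in 1.04% of members and 2.73% of other nuclei. With every nucleus thinned to 1500 UMIs, Slc34a1, a proximal tubule phosphate transporter, had a UMI in 39.6% of members and 46.0% of endothelial-like nuclei. A share near 40% was thus also found in cells that should lack it. Endothelial-like nuclei were chosen by Flt1 and other endothelial genes, with at most 1 UMI each of Lrp2 and Slc8a1. Proximal-tubule-like (PT-like) nuclei were chosen by at least 2 UMIs of Lrp2 and 1 of Slc34a1, so their share of 92.0% follows from the rule. Median depths of members, PT-like and endothelial-like nuclei were 4823, 5064 and 2093 UMIs.

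Compared with all other nuclei, the gene with the highest ratio in members outside the rule was Egfem1, at 1648 CPM ± 832 against 25.5 ± 16.8 (64.6-fold). It was followed by Atp2b2, a plasma membrane calcium pump (239 against 8.97 CPM, 26.6-fold), Scnn1b (721 against 29.1 CPM, 24.8-fold), Hsd11b2 (21.8-fold) and Adamts16, a secreted protease (21.3-fold). The other genes among the 15 with the highest ratios and at least 100 CPM were Spock3, AI838599, Kcnh5 (a voltage-gated potassium channel), Plppr1, Phactr1, Col26a1 (a collagen), Slc2a9 (a urate transporter), Sdk1, Cav1 (caveolin) and Kif26b, at 19.1-fold down to 13.7-fold. In each of these 15 genes every library's members were above every library's other nuclei. The long non-coding RNAs with the highest ratios were Gm26618 (62.3 against 3.05 CPM), Gm15810 (73.7 against 3.77), AI838599 (675 against 37.1), Gm13652 (61.2 against 5.92) and 4933406I18Rik (306 against 36.9). These ratios are descriptions, since members and other nuclei come from the same mice and were split by the counts themselves.

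Different genes marked the border with either neighbour. Against DCT2-like nuclei members had more Mgat4c, a glycosyltransferase gene (476 against 42.3 CPM, 11.2-fold). They also had more Col26a1 (9.61-fold), Kif26b (8.79-fold), Kcnh5 (8.68-fold) and Kcnc2, another potassium channel (7.94-fold). Not all members shared this, since Mgat4c, Col26a1, Kif26b and Kcnh5 were lower where Slc8a1 was high. In the 983 members with over 30000 CPM of Slc8a1 they were at 17.7, 77.2, 348 and 10.4 CPM. DCT2-like nuclei had more Mapk10 (111 against 5.81 CPM, 19.0-fold), Ryr2, a calcium release channel (18.8-fold), Sfrp1, a Wnt inhibitor (17.9-fold), Prkd1 (15.2-fold) and Esrrb, an orphan nuclear receptor (10.8-fold). Against principal-like nuclei, members had more Egfem1 (165-fold), Atp2b4, a second calcium pump gene (177 against 2.49 CPM, 71.3-fold), Slc2a9 (38.3-fold), 9330159M07Rik (25.0-fold) and Tmem52b (22.2-fold). Principal-like nuclei had more Aldh1a3, a retinoic acid synthesis enzyme (272 against 4.34 CPM, 62.7-fold), AC106834.1 (48.0-fold), Slc14a2, the urea transporter (35.4-fold), Muc20 (24.2-fold) and Aqp4, a basolateral water channel (19.9-fold). Ranges of the 8 libraries did not overlap for any of these 20 comparisons. Scnn1b was at 721 CPM in members, 271 in DCT2-like nuclei and 242 in principal-like nuclei, and Nr3c2 was at 2476, 1512 and 1295 CPM, highest in members in both cases with ranges apart from both neighbours. Scnn1a was at 208 CPM in members and 163 in DCT2-like nuclei, with overlapping ranges.

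**Figure D1:**
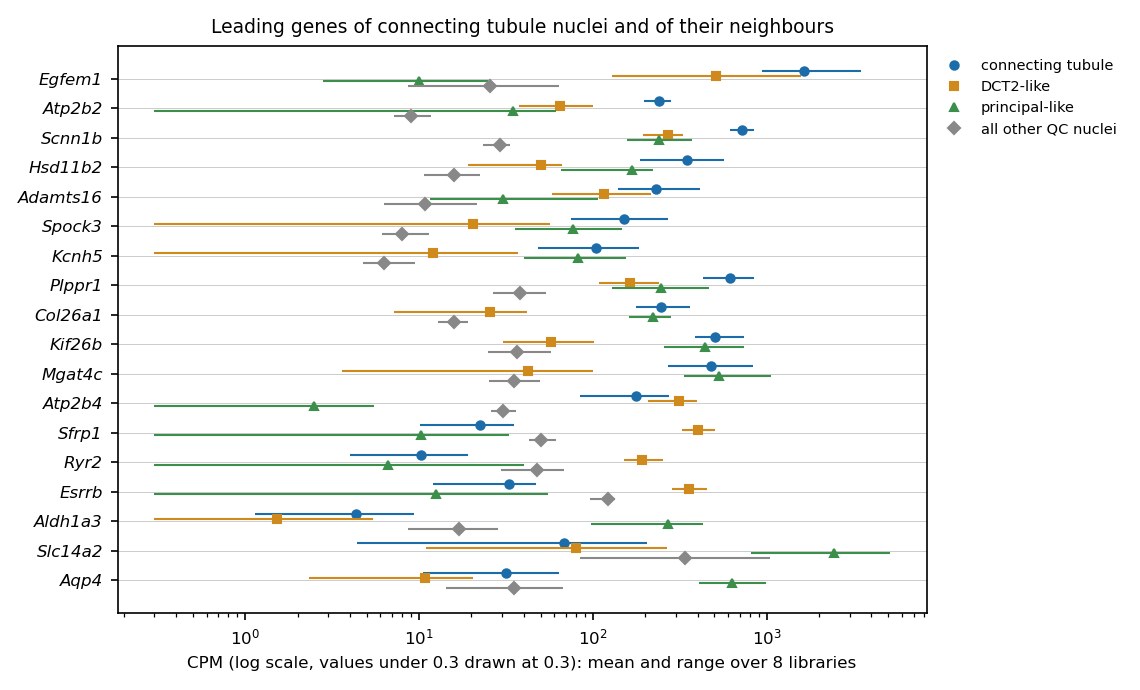
CPM (log axis) of 18 genes in connecting tubule, DCT2-like, principal-like and all other nuclei, where a symbol is the mean over 8 libraries and a bar the range from lowest to highest library. Egfem1 and Atp2b2 lead in connecting tubule nuclei, Sfrp1, Ryr2 and Esrrb in DCT2-like nuclei, and Aldh1a3, Slc14a2 and Aqp4 in principal-like nuclei.

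The members were not uniform. Slc8a1 took from 0.00836% to 17.3% of a member's UMIs, with a median of 2.40%, and the members were divided by this share into 5 bins (under 1000 CPM, 1000 to 3000, 3000 to 10000, 10000 to 30000, and over 30000 CPM, with 206, 306, 293, 329 and 983 nuclei). Of 17 calcium and magnesium genes that the rule did not use, 9 were higher in the highest bin than in the lowest in 8 of 8 libraries, 0 were lower in 8 of 8, and 8 did neither. Of 12663 genes tested outside the rule, 388 (3.06%) were higher in the highest bin in 8 of 8 libraries and 687 (5.43%) were lower. The bins hold unequal numbers of nuclei and were cut by a gene of the rule, so these counts are a description. From the lowest to the highest bin, Vdr, the vitamin D receptor, went from 89.8 to 844 CPM, Klk1, a secreted protease known from this segment, from 70.4 to 804 CPM, and Trpm6, the apical magnesium channel, from 24 to 484 CPM. S100g, the second calbindin, went from 50.9 to 256 CPM. The other 5 of the 9 were Atp2b4 (8.23 to 324 CPM), Kl (167 to 1841 CPM), Cnnm2, Casr and Pth1r. The calcium pump Atp2b1 was nearly level over the bins, at 145 CPM in the lowest and 159 CPM in the highest, and Atp2b2, not on the list, went from 139 CPM to 273 CPM in the fourth bin and 244 CPM in the highest. Egfem1 followed the same order (122 to 2241 CPM), and of the rule genes Trpv5 went from 14.2 to 206 CPM and Calb1 from 284 to 1553 CPM.

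Several genes of principal cells ran the other way. Of 9 genes of water transport and vasopressin, 4 (Aqp2, Aqp3, Aqp4 and Pde4d) were lower in the highest bin in 8 of 8 libraries, 0 were higher in 8 of 8, and 5 did neither, Avpr2 among them (35.2 and 26.9 CPM). Aqp2 went from 594 CPM in the lowest bin to 120 CPM in the highest, Aqp3, the basolateral water channel, from 109 to 21.6 CPM, and Fxyd4, a regulator of ion transport, from 345 to 32.8 CPM. The ratios were larger still for other genes: Mgat4c went from 1362 to 17.7 CPM, Il1rapl1, a synaptic adhesion gene, from 503 to 3.54 CPM, Kcnh5 from 284 to 10.4 CPM and Spock3 from 347 to 17.3 CPM, each lower in the highest bin in 8 of 8 libraries. Of 21 sodium channel and corticosteroid genes outside the rule, 4 were higher in the highest bin in 8 of 8 libraries, 2 were lower and 15 did neither. Wnk1 went from 246 to 3470 CPM, Klhl3, an adaptor that marks WNK kinases for degradation, from 77.1 to 753 CPM and Wnk4 from 64.4 to 295 CPM. Lower were Fxyd4 and Nedd4l, a ubiquitin ligase of the sodium channel, which went from 2194 to 939 CPM. Among the 15 were channel and receptor genes: Scnn1b was at 550 and 736 CPM in the lowest and highest bins, Scnn1a at 183 and 204, Hsd11b2 at 326 and 299 and Nr3c2 at 1944 and 2535 CPM. The bins did not differ much in depth (medians of 4491 to 5424 UMIs). Of their members 16.3% to 23.1% held 1 Slc12a3 UMI, the most that the rule allowed. The rule caps this share, so it cannot show how many distal convoluted nuclei a bin holds. Trpm6, which rose over the bins, was also listed as an early distal convoluted tubule gene. In thinned nuclei, Klk1 had a UMI in 34.8% of members, 42.0% of DCT2-like and 10.9% of principal-like nuclei. For S100g these shares were 22.2%, 21.3% and 6.56%. Whether the gradient is a spread between DCT2-like and principal-like nuclei, or lies within a single cell type, was not tested. The share of members with at least 3 UMIs each of 2 markers of another cell class was 19.4% in the lowest bin, 14.3% in the fourth and 4.68% in the highest, and its part in the gradient was not tested.

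**Figure D2:**
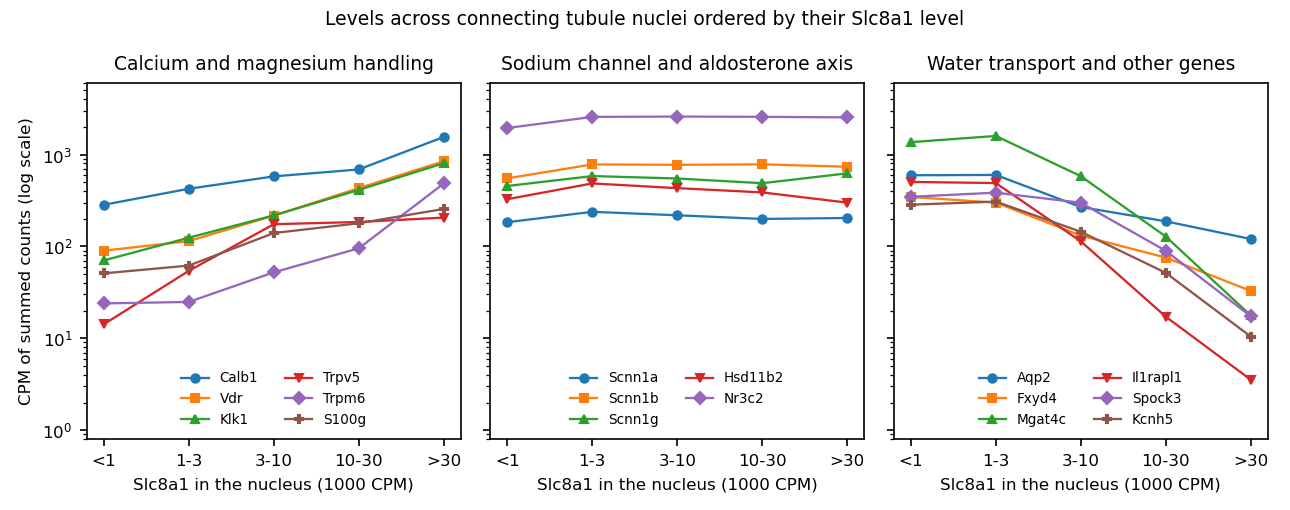
Levels (CPM of counts summed over members of all libraries, log axis) in 5 bins of the Slc8a1 level of the nucleus, for calcium and magnesium genes, sodium channel and aldosterone genes, and water transport and other genes. Trpm6 goes from 24 to 484 CPM and Mgat4c from 1362 to 17.7 CPM, while Scnn1a stays between 183 and 238 CPM. Trpv5, Calb1 and Scnn1g are genes of the member rule.

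The makeup of the members differed between libraries along this gradient. Members with at least 10000 CPM of Slc8a1 (Slc8a1-rich) made up 66.8% and 43.3% of the 2 Ctrl ZT4 libraries, 74.0% and 44.9% of cKOt ZT4, 65.8% and 59.9% of Ctrl ZT16 and 66.5% and 72.2% of cKOt ZT16. The replicate 2 libraries of both ZT4 groups had the lowest shares. Where a call named below was lost without these 2 libraries, the adjusted p without them is given. Both were always left out together, also where only the replicate 2 library of ZT4 in the compared genotype is named. Between genotypes the mean share of Slc8a1-rich members differed by 5.48 percentage points and between times by 8.88 points, given without a test because the member rule used Slc8a1.

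The share of connecting tubule nuclei among all nuclei was 2.62% ± 0.579 (SD, n = 4) in cKOt and 2.60% ± 0.284 in Ctrl, a difference of 0.0202 points (exact permutation test, two-sided, p = 1). At ZT16 it was 2.82% ± 0.423 and at ZT4 2.40% ± 0.344, a difference of 0.424 points (exact permutation p = 0.171). With all nuclei thinned to 1500 UMIs the time difference was 0.374 points (exact permutation p = 0.0571). The smallest p that 4 libraries against 4 allow is 0.0286, so neither comparison separated the libraries completely.

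Aqp2 was found in part of the members, and less often in cKOt. With every nucleus thinned to 1500 UMIs, 29.6% and 34.5% of Ctrl ZT4 members had an Aqp2 UMI, 32.0% and 39.0% of Ctrl ZT16, 25.9% and 27.5% of cKOt ZT4 and 21.1% and 22.2% of cKOt ZT16. All 4 cKOt libraries lay below all 4 Ctrl libraries. The means were 24.2% ± 3.05 in cKOt and 33.8% ± 4.01 in Ctrl (SD, n = 4), a difference of -9.59 points (exact permutation test, two-sided, p = 0.0286, the smallest possible). The difference no longer passed at 2 Aqp2 UMIs or more (-3.85 points, exact permutation p = 0.0571). Among members with Slc12a3 at 0 it did not pass either (-7.34 points, exact permutation p = 0.0857). It also did not pass with Ctrl ZT16 replicate 2, cKOt ZT16 replicate 1 or cKOt ZT16 replicate 2 left out (exact permutation p = 0.0571 for each). The remaining cKOt libraries then still lay below the remaining Ctrl libraries, and with 35 arrangements p moves in coarse steps. Unthinned, the shares were 45.0% and 59.6%. PT-like nuclei, which should lack Aqp2, were chosen with at most 1 Aqp2 UMI, which caps their share. Of them 1.62% to 5.17% had a thinned UMI, with means of 2.38% in cKOt and 2.90% in Ctrl (exact permutation p = 0.743). Endothelial-like nuclei, chosen without Aqp2, had 2.53% to 9.53%, with means of 6.92% in cKOt and 5.84% in Ctrl (exact permutation p = 0.571). All other nuclei, which include principal-like ones, had 5.43% to 13.9%. In each of these sets and in members the highest library was Ctrl ZT16 replicate 2. Within Slc8a1-rich members the shares were 15.1% and 20.1% (exact permutation p = 0.2), and among the other members 42.0% and 53.3% (exact permutation p = 0.114), lower in cKOt in both but no longer past the threshold. In summed counts, Aqp2 was at 213 CPM ± 21.5 in cKOt and 334 ± 105 in Ctrl, and the log2 fold change of -0.62 did not pass the test across all genes (adjusted p = 0.0912, edgeR).

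**Figure D3:**
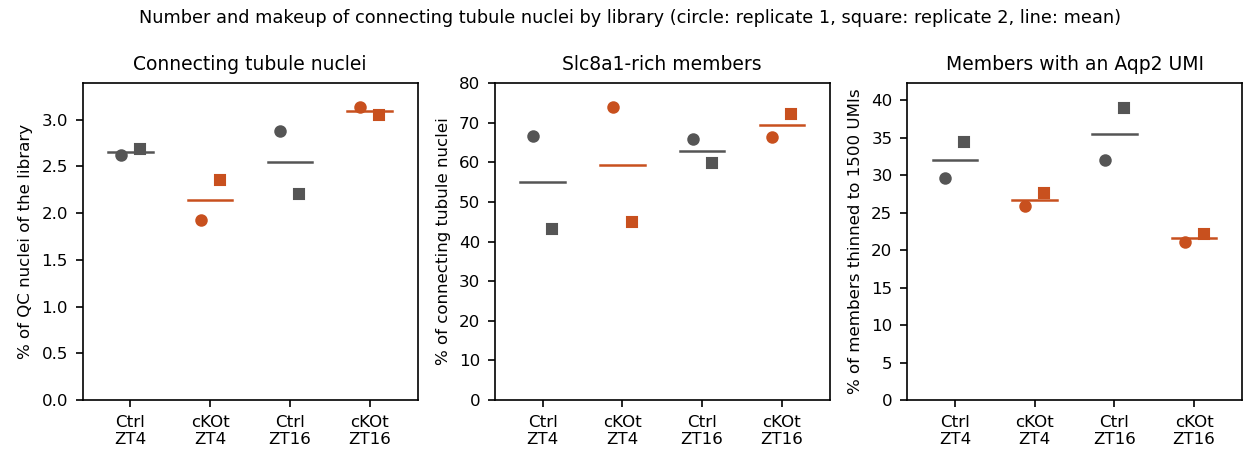
For each library, the share of connecting tubule nuclei among QC nuclei, the share of Slc8a1-rich members, and the share of members with an Aqp2 UMI after thinning, all in percent, with the mean of each group of 2 as a line. Replicate 2 of both ZT4 groups is low in Slc8a1-rich members (43.3% and 44.9%), and the Aqp2 share of every cKOt library is below 29.6%, the lowest Ctrl library.

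Counts summed over members were compared between groups with edgeR's quasi-likelihood test, in 1 fit of the 4 groups, and a gene was called at a Benjamini-Hochberg adjusted p under 0.05 over all genes tested in that contrast. Levels below are CPM after TMM scaling. In summed counts, a change in the kind of nuclei that met the rule and a change within nuclei cannot be told apart. Called genes were few: 17 of 12140 genes between times in Ctrl (0.140%), 7 of 12134 between times in cKOt (0.0577%), 13 of 11859 between genotypes at ZT4 (0.110%), 10 of 12352 at ZT16 (0.0810%) and 49 of 12668 between genotypes over both times (0.387%). The interaction of genotype and time called 2 of 12668 genes (0.0158%). An unadjusted p under 0.05 was found for 7.89%, 7.46%, 5.97%, 6.46%, 8.11% and 3.55% of all genes tested in these 6 contrasts, in the same order, and counts of list members at that limit are to be set beside these shares. In simulated data of the time contrast in Ctrl, changed genes were drawn only from those above a minimum CPM. The test found 42% of those changed 2-fold and 92% of those changed 3-fold. Thus 2-fold changes were often below what these libraries can show, and recovery of genes with lower counts was not tested. Without the replicate 2 libraries of ZT4 the counts were 1 in Ctrl between times (Defb1), 4 between genotypes at ZT4 (Npas2, Cry1 and Arntl among them), 16 over both times and 0 for the interaction, with each group at ZT4 then resting on 1 library. Among them were 1 of the 17, 4 of the 13 and 13 of the 49 genes called with all libraries. In cKOt between times 4 of the 7 genes stayed called, and at ZT16 8 of the 10. Within Slc8a1-rich members alone 13 of 17, 7 of 7, 11 of 13, 8 of 10 and 38 of 49 stayed called, in the order in which the contrasts are given above. These are part of the same nuclei, so some of this overlap is built in. Among the other members alone, which are fewer nuclei, 1 of 17, 0 of 7, 3 of 13, 1 of 10 and 12 of 49 stayed called.

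Most calls also depended on single libraries: of 98 calls of a gene in a contrast, 24 stayed when each of the 8 libraries was left out in turn. At ZT4 these included Npas2, Cry1, Nr1d2 and Rhobtb1, at ZT16 Npas2 and Ces1d, between times Defb1 in Ctrl and Kif23 and Zbtb16 in cKOt, and over both times Npas2, Arntl, Cry1, Nr1d2, Ces1d, Abca13, Cyp2a4, Ppard, Umod, Rhobtb1, Wsb1 and Vmn1r32. Over both times Per3 and Npy6r stayed called in 1 of the 8 fits and Tef in 3. At ZT16 Nr1d2 stayed in 2, Umod and Vmn1r32 in 3, and Rbfox1, Trabd2b and Wsb1 in 4. At ZT4 Ces1d stayed in 3 and Umod in 4, and in Ctrl between times Hspa5, Hspa8 and Tsc22d3 stayed in 4. All other calls given below stayed in 5 to 7 of the 8 fits.

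The circadian clock is a loop in which Arntl (Bmal1) with Clock or Npas2 activates genes through E-box sequences, the Per and Cry proteins inhibit that pair, and Nr1d1 and Nr1d2 (REV-ERB) repress Arntl and related genes. Of 20 core clock genes listed, 17 were tested over both times and 7 were called between genotypes, 4 higher and 3 lower in cKOt, against 0.387% of all genes. At ZT4 5 of 17 were called, at ZT16 2 of 15. The median log2 fold change of the tested clock genes over both times was 0.11, beside -0.01 for all genes.

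Npas2, the partner that can replace Clock, had 24.1 and 14 CPM in Ctrl ZT4, 25.0 and 35.1 in Ctrl ZT16, 276 and 260 in cKOt ZT4 and 237 and 261 in cKOt ZT16. All cKOt libraries were well above all Ctrl libraries at either time. It rose 11-fold over both times (log2 3.46 ± 0.16, SE, adjusted p = 4.3e-08), 14.5-fold at ZT4 and 8.41-fold at ZT16. Within Slc8a1-rich members the log2 change was 4.05, and without the replicate 2 libraries of ZT4 it was 3.29 (adjusted p = 2.2e-05).

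Arntl itself, the inactivated gene, had 86.2 and 30.4 CPM in Ctrl ZT4, 95.6 and 122 in Ctrl ZT16, 322 and 236 in cKOt ZT4 and 299 and 280 in cKOt ZT16. Its counts were higher in cKOt (3.64-fold over both times, adjusted p = 0.00095). The reads are 3′ tags that need not cover the part removed by Cre, so this level is no check of the genotype labels. At ZT16 the difference, 2.68-fold, did not pass (adjusted p = 0.196).

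Cry1, a repressor, had 3.45 and 2.92 CPM in Ctrl ZT4, 26.7 and 31.9 in Ctrl ZT16, 61.6 and 39.5 in cKOt ZT4 and 40.8 and 55.4 in cKOt ZT16. It was near 3 CPM only in Ctrl ZT4, and in cKOt both times overlapped. It rose 15.5-fold in cKOt at ZT4 (adjusted p = 0.00051) and 9.04-fold from ZT4 to ZT16 in Ctrl (adjusted p = 0.0067), while cKOt showed a log2 change of -0.05 between times (adjusted p = 0.989). The change in cKOt at ZT4 stayed called without the replicate 2 libraries of ZT4 (adjusted p = 0.0397) and that between times in Ctrl did not (adjusted p = 0.150).

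Nr1d2, a REV-ERB repressor, had 87.0 and 139 CPM in Ctrl ZT4, 29.0 and 27.0 in Ctrl ZT16, 20.5 and 15.3 in cKOt ZT4 and 6.23 and 6.55 in cKOt ZT16. Every cKOt library was below every Ctrl library. It fell in cKOt at ZT4 (6.44-fold lower, adjusted p = 0.00051) and at ZT16 (4.35-fold lower, adjusted p = 0.0443), and from ZT4 to ZT16 in Ctrl (4.05-fold lower, adjusted p = 0.0065). In cKOt the ZT16 level was 2.74-fold below that at ZT4, a change that did not pass (adjusted p = 0.332). Nr1d1 had 26.7 and 24.5 CPM in Ctrl ZT4 and at most 7.31 CPM in every other library, and it fell 14.4-fold from ZT4 to ZT16 in Ctrl (adjusted p = 0.0082). When the replicate 2 libraries of ZT4 were left out, Nr1d2 was not called at ZT4 (adjusted p = 0.174) or between times in Ctrl (adjusted p = 0.129), was still called over both times (adjusted p = 0.0073), and Nr1d1 was not called (adjusted p = 0.109). The call of Nr1d2 at ZT16 stayed in 2 of 8 fits that each left out 1 library: it was lost without either cKOt ZT4 library or any ZT16 library (adjusted p = 0.0675 to 0.400).

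Per3 and Tef were called lower in cKOt over both times and at neither time alone. Per3, a Period gene, had 23.3 to 41.5 CPM in Ctrl and 12.5 to 17.4 CPM in cKOt (2.24-fold lower over both times, adjusted p = 0.0442). Tef, a PAR bZIP activator that carries clock output, had 108 to 145 CPM in Ctrl and 67.7 to 86.4 in cKOt (1.75-fold lower, adjusted p = 0.0171). Neither gene's genotypes overlapped. Neither was called without the replicate 2 libraries of ZT4 (adjusted p = 0.441 for Per3 and 0.216 for Tef).

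Per2 rose from 31.0 and 43.8 CPM at ZT4 to 135 and 157 at ZT16 in Ctrl (3.82-fold, adjusted p = 0.0104, and 0.129 without the replicate 2 library of ZT4). The cKOt libraries overlapped between times, with 105 and 77.5 CPM at the first and 154 and 85.2 CPM at the second. Clock was at 166 ± 9.18 CPM in Ctrl and 224 ± 11.5 in cKOt (adjusted p = 0.133), and Rora at 677 ± 68.1 and 502 ± 96.9 CPM (adjusted p = 0.188), and neither was called. Per1, Cry2, Hlf and Bhlhe40 were below 63 CPM in every library and were called in no contrast.

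**Figure D4:**
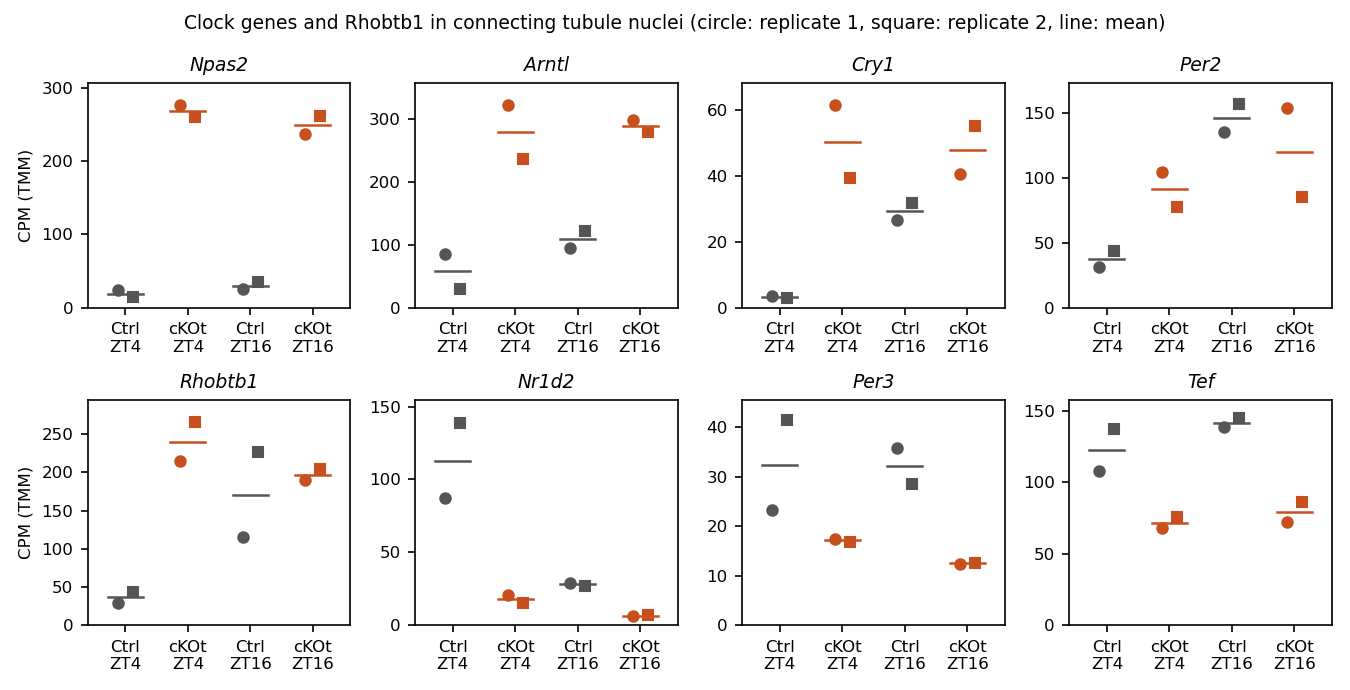
Levels of 7 clock genes and Rhobtb1 in connecting tubule nuclei (CPM after TMM scaling, axes from 0) for each of 8 libraries, with the mean of each group as a line. Cry1, Per2 and Rhobtb1 are lowest in Ctrl ZT4, Npas2 and Arntl are high in all cKOt libraries, and Nr1d2, Per3 and Tef are low in all cKOt libraries.

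The 3 called clock genes that were lower in cKOt at both times (Per3, Nr1d2 and Tef) are shown with their promoters, since Arntl acts on clock genes through E-boxes. Each sequence holds 250 bases before and 50 after a RefSeq start site (GRCm38.p6, the gene's strand, 5′ to 3′), and capitals mark CACGTG, the canonical E-box, which reads the same on both strands.
Per3 (chr4:151044616-151044915, minus strand): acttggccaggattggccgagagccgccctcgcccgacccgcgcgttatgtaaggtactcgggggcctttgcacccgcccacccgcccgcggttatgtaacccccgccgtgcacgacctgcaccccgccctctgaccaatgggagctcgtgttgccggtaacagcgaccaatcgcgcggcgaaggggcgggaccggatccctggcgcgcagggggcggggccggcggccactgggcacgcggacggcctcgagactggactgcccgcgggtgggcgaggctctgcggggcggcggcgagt
Nr1d2 (chr14:18239057-18239356, minus strand): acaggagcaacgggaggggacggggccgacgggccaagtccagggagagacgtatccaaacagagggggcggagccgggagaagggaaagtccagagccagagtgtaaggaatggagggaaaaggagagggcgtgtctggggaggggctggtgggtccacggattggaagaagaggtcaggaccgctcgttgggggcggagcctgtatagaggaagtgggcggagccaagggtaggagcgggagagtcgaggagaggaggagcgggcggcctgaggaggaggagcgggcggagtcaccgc
Tef, upstream start (chr15:81802423-81802722, plus strand): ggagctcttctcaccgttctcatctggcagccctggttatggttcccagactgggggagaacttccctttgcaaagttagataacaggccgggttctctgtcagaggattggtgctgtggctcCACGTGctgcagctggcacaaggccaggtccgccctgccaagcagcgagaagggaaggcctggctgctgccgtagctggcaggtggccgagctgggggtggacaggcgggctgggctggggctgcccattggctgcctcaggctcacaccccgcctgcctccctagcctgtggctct
Tef, downstream start (chr15:81811164-81811463, plus strand): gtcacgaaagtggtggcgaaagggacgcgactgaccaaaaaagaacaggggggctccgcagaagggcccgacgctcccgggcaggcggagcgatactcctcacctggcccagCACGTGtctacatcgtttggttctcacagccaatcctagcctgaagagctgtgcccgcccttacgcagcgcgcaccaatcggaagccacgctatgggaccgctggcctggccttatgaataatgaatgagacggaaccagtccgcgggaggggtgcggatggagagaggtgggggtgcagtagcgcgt

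Both Tef windows hold 1 E-box, and the windows of Per3 and Nr1d2 hold no CACGTG, which says only that these letters are not within these 300 bases. Of 32851 RefSeq mouse promoters of the same length, 2349 (7.15%) hold CACGTG, as do those of 5 of the 17 core clock genes with an entry. All 3 genes had an entry.

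Over both times, the genotypes' libraries did not overlap for 43 of the 49 genes called and for 533 of all 12668 genes tested (4.21%). Both counts come from the same contrast, so that the calls largely fix the first. Of 51 genes called in any genotype contrast, 33 were called only over both times, and 5 were called at ZT4 and at ZT16: Ces1d, Npas2, Nr1d2, Umod and Vmn1r32. These contrasts share libraries with that over both times.

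Rhobtb1 was also lowest in Ctrl ZT4, with 28.4 and 43.8 CPM in Ctrl ZT4, 116 and 226 in Ctrl ZT16, 214 and 266 in cKOt ZT4 and 190 and 205 in cKOt ZT16. It rose 6.52-fold in cKOt at ZT4 (adjusted p = 0.00051) and 4.57-fold from ZT4 to ZT16 in Ctrl (adjusted p = 0.0067). Without the replicate 2 libraries of ZT4 the same changes had adjusted p of 0.105 and 0.109.

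Ppard, a lipid-sensing nuclear receptor, rose 3.03-fold over both times (adjusted p = 0.0013), from 32.1 to 54.3 CPM in Ctrl to 104 to 173 in cKOt. Wsb1, a ubiquitin ligase adaptor, had 486 to 555 CPM in Ctrl and 715 to 1274 CPM in cKOt and rose 2.01-fold (adjusted p = 0.0030). Trabd2b, a Wnt-cleaving metalloprotease, had 502 to 664 CPM in Ctrl and 797 to 1037 CPM in cKOt. It rose 1.62-fold over both times (adjusted p = 0.0131) and 1.92-fold at ZT16 (adjusted p = 0.0443). In all other nuclei Trabd2b had a log2 difference of 0.12 at ZT16 (adjusted p = 1.00), but the test of the difference between members and other nuclei at ZT16 called no gene. Ppard stayed called over both times without the replicate 2 libraries of ZT4 (adjusted p = 0.0264), while Wsb1 and Trabd2b did not (adjusted p = 0.0586 and 0.0541).

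Vmn1r32, which codes for a vomeronasal receptor, had no count in any of the 4 Ctrl libraries and 22, 36, 16 and 35 counts in the cKOt libraries. Against a floor of 3 counts over the 4 Ctrl libraries it was at least 35.6-fold higher in cKOt (adjusted p = 0.00061 over both times). It was also listed in other cKOt nuclei, and PT-like nuclei had up to 7.62 CPM. Npy6r, a neuropeptide Y receptor gene, was the reverse, with 3, 9, 6 and 6 counts in Ctrl and none in cKOt, at least 8.17-fold lower in cKOt (adjusted p = 0.0370). Npy6r was chosen after its values were seen, because all its cKOt counts were 0. With the replicate 2 libraries of ZT4 left out, Vmn1r32 stayed called over both times (adjusted p = 0.0182) but not at ZT4 or ZT16 alone (adjusted p = 0.508 and 0.0682), and Npy6r was not called (adjusted p = 0.359).

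Among genes that were lower in cKOt, Abca13, a large lipid transporter gene, had 431 and 357 CPM in Ctrl ZT4, 564 and 528 in Ctrl ZT16, 187 and 222 in cKOt ZT4 and 167 and 211 in cKOt ZT16. The Ctrl libraries were all above the cKOt libraries. It fell 2.35-fold over both times (adjusted p = 0.00021, and 0.0058 without the replicate 2 libraries of ZT4) and 2.89-fold at ZT16 (adjusted p = 0.0013). Abca13 is foremost a gene of the segment upstream, with 2821 CPM in DCT2-like nuclei and 333 CPM in members.

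Rbfox1, a splicing factor, had 819 and 1144 CPM in Ctrl ZT4, 847 and 959 in Ctrl ZT16, 463 and 722 in cKOt ZT4 and 320 and 388 in cKOt ZT16. It fell 2.05-fold over both times (adjusted p = 0.0066) and 2.55-fold at ZT16 (adjusted p = 0.0443), where the groups were farthest apart. It was at 708 CPM in members, 903 CPM in principal-like and 119 CPM in DCT2-like nuclei. Within Slc8a1-rich members the log2 change over both times was -1.37 (adjusted p = 1.4e-05), beside -1.04 in all members. In all other nuclei it was -0.38 (adjusted p = 0.157).

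Ces1d, a carboxylesterase of lipid metabolism, had 19.0 and 32.1 CPM in Ctrl ZT4, 78.0 and 76.0 in Ctrl ZT16, 2.05 and 4.39 in cKOt ZT4 and 9.62 and 3.57 in cKOt ZT16. It fell 9.29-fold over both times (adjusted p = 0.00019), 7.55-fold at ZT4 and 11.4-fold at ZT16. Ces1d was not called at ZT4 without the replicate 2 libraries (adjusted p = 0.739) and stayed called over both times (adjusted p = 0.0143). Cyp2a4, a steroid hydroxylase, had 16.4 to 29.0 CPM in Ctrl and 1.19 to 3.4 CPM in cKOt, and fell 8.04-fold over both times (adjusted p = 0.0013, and 0.0510 without those libraries). Both belong to families of near-identical genes between which reads may be split. Ces1d was at 28.2 CPM in members, 66.8 CPM in PT-like nuclei and 39.3 CPM in all other nuclei, and Cyp2a4 at 11.4, 14.9 and 13.1 CPM.

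Umod, the uromodulin gene of the thick ascending limb, had 111 and 103 CPM in Ctrl ZT4, 240 and 184 in Ctrl ZT16, 35.9 and 45.3 in cKOt ZT4 and 108 and 88.1 in cKOt ZT16. At either time the groups did not overlap, while cKOt at ZT16 reached the Ctrl range of ZT4. It fell 2.60-fold at ZT4 (adjusted p = 0.0212) and 2.17-fold at ZT16 (adjusted p = 0.0443). Neither of these was called without the replicate 2 libraries of ZT4 (adjusted p = 0.392 and 0.0780), while Umod stayed called over both times (adjusted p = 0.0182). The level of Umod was 114 CPM in members, 116 CPM in DCT2-like, 100 CPM in principal-like and 359 CPM in all other nuclei. Of the 6 thick ascending limb genes tested over both times, Umod was the only one called. Slc12a1, the cotransporter that defines that limb, had 671 ± 203 CPM in Ctrl and 500 ± 178 in cKOt. The part of RNA from other cells in the changes of Ces1d, Cyp2a4 and Umod was not tested.

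**Figure D5:**
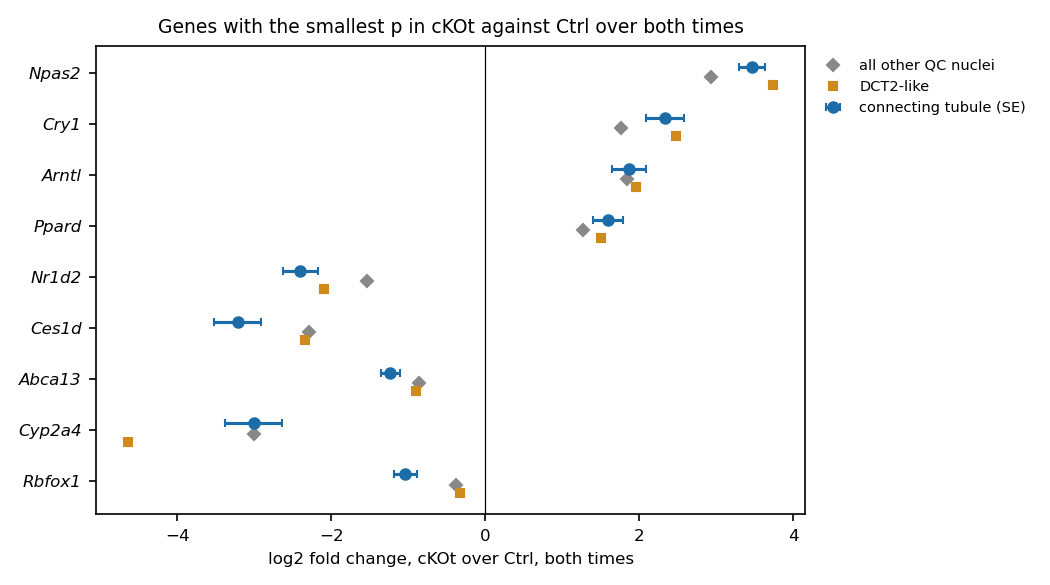
Log2 fold change of cKOt over Ctrl, both times together, for the genes named by smallest p in each direction (Vmn1r32, with no count in Ctrl, is left out), in connecting tubule nuclei with the standard error, in all other QC nuclei and in DCT2-like nuclei. Npas2 (3.46), Cry1, Arntl and Ppard are right of 0 and Nr1d2, Ces1d, Abca13, Cyp2a4 and Rbfox1 left of 0 in all 3 sets of nuclei.

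The effects of members were also tested against those of all other nuclei of the same libraries, with a block for the library. In Ctrl between times, and between genotypes at ZT4 and at ZT16, 0 genes differed in edgeR's quasi-likelihood test, while 744, 657 and 741 had an unadjusted p under 0.05 of 12140, 11859 and 12352 tested. No effect in these contrasts was therefore shown to be particular to these nuclei against the rest of the kidney. Against DCT2-like nuclei 7, 1 and 3 genes differed, and against principal-like nuclei 26, 11 and 15. Genes entered these tests by their counts in members alone, with no minimum in the neighbours. Principal-like nuclei were 32 to 81 a library and DCT2-like nuclei 84 to 126, so a difference can rest on few counts there.

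Between times in Ctrl, 11 genes rose from ZT4 to ZT16 and 6 fell. Of the 17 clock genes tested 5 were called, with Cry1 and Per2 among those higher and Nr1d1 and Nr1d2 lower. Defb1, a beta-defensin secreted by the distal nephron, had 371 and 452 CPM in Ctrl ZT4, 1244 and 1232 in Ctrl ZT16, 344 and 504 in cKOt ZT4 and 838 and 898 in cKOt ZT16. Levels at ZT16 were above those at ZT4 in both genotypes. It rose 3.0-fold in Ctrl (log2 1.59 ± 0.18, adjusted p = 0.0029), and in cKOt the log2 change of 1.03 did not pass (adjusted p = 0.0762). In cKOt it did pass within Slc8a1-rich members (log2 1.09, adjusted p = 0.0493), and without the replicate 2 libraries of ZT4 the log2 change was 1.34. The interaction was not called (adjusted p = 1.00). It was the one gene still called in Ctrl without the replicate 2 libraries of ZT4 (log2 1.75, adjusted p = 0.0223). In DCT2-like nuclei, where Defb1 was as high (917 CPM against 729 CPM in members), its log2 change in Ctrl was 0.40 (adjusted p = 0.553), and the difference to members was called (1.18 ± 0.19, adjusted p = 0.0081).

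Kif23, which codes for a kinesin of cell division, and Zbtb16, a glucocorticoid-responsive transcriptional repressor, fell in both genotypes. Kif23 had 37.0 and 36.2 CPM in Ctrl ZT4, 9.10 and 7.35 in Ctrl ZT16, 74.9 and 96.5 in cKOt ZT4 and 13.0 and 13.1 in cKOt ZT16. It fell 4.35-fold in Ctrl (adjusted p = 0.0082) and 6.56-fold in cKOt (adjusted p = 0.00034). Zbtb16 went from 75.0 and 78.3 CPM to 28.5 and 31.0 CPM in Ctrl and from 78.0 and 89.2 CPM to 14.2 and 17.9 CPM in cKOt. The changes were 2.59-fold (adjusted p = 0.0182) and 5.23-fold (adjusted p = 0.00034). In cKOt both remained called without the replicate 2 library of ZT4 (adjusted p = 0.0145 and 0.0189), and in Ctrl neither did (adjusted p = 0.129 and 0.243). Hspa5, the chaperone BiP, was the third gene called in both genotypes, rising 2.76-fold in Ctrl (adjusted p = 0.0319) and 2.98-fold in cKOt (adjusted p = 0.0392), and Hsp90b1, another chaperone of the endoplasmic reticulum, rose 2.33-fold in cKOt (adjusted p = 0.0392). Hspa8, a chaperone of the cytosol, rose from 56.0 and 49.1 CPM to 134 and 138 CPM in Ctrl (2.60-fold, adjusted p = 0.0272), and its log2 change of 0.80 in cKOt did not pass (adjusted p = 0.398). None of these 3 chaperones was called without the replicate 2 library of ZT4 (adjusted p = 0.278 and 0.494 for Hspa5, 0.485 for Hsp90b1 and 0.210 for Hspa8). Of 9 immediate early and heat shock genes tested in Ctrl, and 10 in cKOt, 0 were called by edgeR, with 3 and 1 at an unadjusted p under 0.05. The list holds none of Hspa5, Hsp90b1 and Hspa8, and its median log2 change was 0.76 in Ctrl and 0.19 in cKOt, beside 0.01 and 0.00 for all genes.

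In Ctrl 4930556J24Rik (3.6-fold, adjusted p = 0.0124) and Il1rapl1 (2.43-fold, adjusted p = 0.0145) also fell, and without the replicate 2 library of ZT4 neither was called (adjusted p = 0.0697 and 0.243). Il1rapl1 went from 190 and 228 CPM to 99.0 and 71.9 CPM, and it is among the genes that are highest where Slc8a1 is lowest. Within Slc8a1-rich members its log2 change was -1.91 and did not pass (adjusted p = 0.367). In cKOt, Scd1, a fatty acid desaturase, fell from 45.1 and 22.7 CPM to 0 and 1.19 CPM (adjusted p = 0.0037), and Gm1604a from 71.8 and 46.8 CPM to 3.96 and 7.74 CPM (9.94-fold, adjusted p = 0.0021). No clock gene of 15 tested was called between times in cKOt, and 2 had an unadjusted p under 0.05.

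Pde10a, a cyclic nucleotide phosphodiesterase, had 151 and 165 CPM in Ctrl ZT4, 87.6 and 106 in Ctrl ZT16, 71.8 and 70.9 in cKOt ZT4 and 178 and 175 in cKOt ZT16. Ctrl was high at ZT4 and cKOt at ZT16. It rose 2.47-fold in cKOt (adjusted p = 0.0060), and in Ctrl the log2 change of -0.71 did not pass (adjusted p = 0.207). At ZT4 it was 2.22-fold lower in cKOt (adjusted p = 0.0154). The interaction was called (log2 2.02 ± 0.24, adjusted p = 0.0088), and within Slc8a1-rich members it was 3.51 (adjusted p = 5.9e-06). Without the replicate 2 libraries of ZT4 it was 1.94 (adjusted p = 0.471), and the changes in cKOt and at ZT4 were not called either (adjusted p = 0.218 and 0.655). The level of Pde10a was 125 CPM in members and 583 CPM in DCT2-like nuclei.

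Few transport genes of the segment were called between groups. Of 20 calcium and magnesium genes, 18 or 19 were tested in each contrast and edgeR called none. At an unadjusted p under 0.05 were 2 between genotypes over both times, 6 between times in Ctrl and 9 in cKOt. Of all genes 8.11%, 7.89% and 7.46% had such a p. The list holds the rule genes Slc8a1, Trpv5 and Calb1, whose values are a description, and in cKOt these were among the 9. Kl, the FGF23 co-receptor klotho, had 877 and 594 CPM in Ctrl ZT4, 1699 and 1301 in Ctrl ZT16, 937 and 694 in cKOt ZT4 and 1463 and 1341 in cKOt ZT16. Every ZT16 library was above every ZT4 library, and the log2 changes of 1.03 in Ctrl and 0.78 in cKOt did not pass (adjusted p = 0.107 and 0.332). Within Slc8a1-rich members the same changes were 1.04 and 0.83 (adjusted p = 0.0021 and 0.0170). That subset was cut by a rule gene after the data were seen, and its makeup still differed between times. In the ZT4 libraries 55 to 121 of its nuclei had over 30000 CPM of Slc8a1 and 42 to 52 had 10000 to 30000. In the ZT16 libraries these were 114 to 207 and 21 to 48. Kl was at 939 CPM in the fourth bin and 1841 CPM in the highest. The part of this makeup in the changes was not tested. Trpm6 and Vdr had log2 differences of 0.21 ± 0.21 and 0.38 ± 0.22 between genotypes over both times.

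Of 22 sodium channel and corticosteroid genes 21 were tested, and between genotypes none was called in any of the 3 contrasts. At an unadjusted p under 0.05 were 3, 5 and 5 at ZT4, at ZT16 and over both times. The list holds Scnn1g, a gene of the member rule, whose value is a description. Scnn1b was at 710 ± 93.3 CPM in Ctrl and 743 ± 81.9 in cKOt, and Scnn1a at 210 ± 9.98 and 210 ± 46.4 CPM. Nr3c2 was at 2537 ± 251 and 2450 ± 281 CPM, and Wnk1, a kinase that regulates ion transport, at 1772 ± 552 and 2120 ± 555 CPM. Between times in Ctrl, Tsc22d3 (GILZ), a target of corticosteroid receptors, rose from 26.7 and 22.8 CPM to 66.0 and 71.1 CPM (2.78-fold, adjusted p = 0.0210, and 0.243 without the replicate 2 library of ZT4), and Zbtb16 fell as given above. In cKOt the ZT4 libraries held Tsc22d3 at 63.6 and 43.9 CPM and those of ZT16 at 46.4 and 47.0 CPM. For Tsc22d3 the interaction did not pass (log2 -1.66 ± 0.34, adjusted p = 0.372).

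Potassium channel genes (10 listed, 9 tested) had no call in any contrast by edgeR and at most 1 gene at an unadjusted p under 0.05. Kcnj1 (ROMK), the secretory channel, was at 324 ± 40.8 CPM in Ctrl and 315 ± 12.7 in cKOt, and Kcnj16 at 976 ± 77.7 and 1013 ± 152 CPM. The 20 transcription factors of the distal nephron had no call in any contrast either, with at most 5 at an unadjusted p under 0.05. Esrrg was at 4369 ± 834 CPM in Ctrl and 4624 ± 918 in cKOt, and Pax8, whose promoter drives the Cre activator, at 422 ± 66.3 and 345 ± 19.8 CPM (log2 -0.28 ± 0.11, adjusted p = 0.485).

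Of the 9 genes of water transport and vasopressin 8 were tested over both times, and 1 was called. Aqp4 had 31.0 and 62.5 CPM in Ctrl ZT4, 45.0 and 49.0 in Ctrl ZT16, 15.4 and 24.8 in cKOt ZT4 and 10.8 and 15.5 in cKOt ZT16. All cKOt libraries were below all Ctrl libraries, and it fell 2.87-fold (log2 -1.52 ± 0.25, adjusted p = 0.0156). In principal-like nuclei its level was 632 CPM. Without the replicate 2 libraries of ZT4 the log2 change was -1.42 (adjusted p = 0.0999). Aqp3 was at 64.1 ± 10.5 CPM in Ctrl and 46.0 ± 9.84 in cKOt, and Avpr2, the vasopressin receptor, at 35.4 ± 19.9 and 25.2 ± 12.1 CPM. The median log2 fold change of the list over both times was -0.34, beside -0.01 for all genes.

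Of 12 intercalated cell genes none was called in any contrast by edgeR. At an unadjusted p under 0.05 were 3 of 11 tested between times in Ctrl, 1 of 8 in cKOt, 4 of 8 between genotypes at ZT4, 4 of 12 at ZT16, 4 of 12 over both times and 5 of 12 for the interaction. Over all genes these shares were 7.89%, 7.46%, 5.97%, 6.46%, 8.11% and 3.55%. Their median log2 change was 1.09 between times in Ctrl and -0.46 in cKOt, and that of the interaction was -2.15, beside -0.01 for all genes. Slc26a4 (pendrin) had 46.5 and 8.18 CPM in Ctrl ZT4, 71.1 and 8.17 in Ctrl ZT16, 189 and 32.9 in cKOt ZT4 and 26.6 and 57.8 in cKOt ZT16. Slc4a9, found in the same cell type, ran with it, from 7.6 to 81.0 CPM. In both Ctrl groups and in cKOt ZT4 the first mouse was well above the second, so the spread within groups was wide. Slc26a4 and Slc4a9 do not stand for the whole list. Between times in cKOt the log2 change was -1.35 for Slc26a4, -0.77 for Slc4a9, -1.37 for Atp6v0d2 and -1.27 for Hmx2. It was -0.16 for Rhcg, 0.26 for Car2 and 1.13 for Atp6v1g3.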

How the data were processed

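Nuclei of 8 mouse kidneys were sequenced with the 10x 3′ v3.1 chemistry. The authors made the deposited raw UMI counts per gene and nucleus with Cell Ranger 7.1.0. The processing notes name GRCm39 and the methods name an mm10 reference, so the build is not settled. The sources used here do not say if strand was used or introns included. The members and gene lists were chosen with earlier results of these data known. Counts were summed over the members of each library and tested with edgeR 4.0.16 (R 4.3.3, quasi-likelihood, TMM, 1 fit of 4 groups), on non-mitochondrial genes that reached 5 counts in each replicate of a compared group, with Benjamini-Hochberg adjustment over all genes tested. The study fitted DESeq2 on lncRNAs and mRNAs apart, and both choices were tried as alternatives (DESeq2 1.42.0). Shares were compared by exact permutation of libraries (70 arrangements, two-sided), and nuclei were thinned to 1500 UMIs where depth could set a share. Genes were named by a fixed rule: the 15 with the highest ratio to other nuclei at 100 CPM or more, 5 in each direction against either neighbour, 5 lncRNAs at 50 CPM or more, the 5 called genes of smallest p in each direction of a contrast whose groups did not overlap, the genes of the member rule, Pax8 and Arntl, and list members that were called or among the 6 highest in level. Genes outside it (Slc26a4, Slc4a9, Npy6r, Hspa8 and a few list members not called) were chosen after their values were seen. No doublet caller was run and all members were kept. Libraries held 36548873 to 54500820 UMIs after quality control. Replicates of a group were separate mice per the labels, and their counts were farther apart than sampling gives (chi-square over its degrees of freedom 3.03 to 5.17). Intervals and floors cover counting error only. The tests were checked on simulated data of 12668 genes. RefSeq promoters (GRCm38.p6) gave the sequences. Counts of genes include 2 genes that are not reported here.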

Additional observations from a re-analysis of the deposited data

Results flagged for a closer look

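The effect of time differed between genotypes for Pde10a (log2 interaction 2.02) by edgeR's interaction test.

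Between times in Ctrl, 7 genes changed differently in connecting tubule nuclei and in DCT2-like nuclei, and 26 genes differently from principal-like nuclei, by edgeR's quasi-likelihood test of the difference. Values are given for 3 of them that were also called in connecting tubule nuclei. For Defb1 the log2 change was higher by 1.18 ± 0.19 (SE, adjusted p = 0.0081) than in DCT2-like nuclei and by 1.27 ± 0.30 (adjusted p = 0.0189) than in principal-like nuclei. For Kif23 the difference to principal-like nuclei was -4.46 ± 0.71 (adjusted p = 1.7e-06), and for Zbtb16 it was -1.96 ± 0.50 (adjusted p = 0.0474). Genes entered by their counts in members alone, and principal-like nuclei were 32 to 81 a library. The differences of Kif23 and Zbtb16 can therefore rest on few principal-like counts. Among the 4 libraries of either genotype or time, Dixon's test found no library far from the others in the share of connecting tubule nuclei or of members with Aqp2. With 4 values this test looks for 1 library apart and cannot flag 2 together. The share of Slc8a1-rich members is given without a test.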

How the results depend on the processing

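All 98 called gene results (a gene in a contrast) kept their direction in all 2386 values under the alternatives, 18 to 25 for each result, and 10 stayed called under each of theirs. DESeq2 kept 87 of 98 and leaving out both ZT4 replicate 2 libraries (chosen after seeing the data) kept 30 of 98. Counts of called genes, in the order Ctrl between times, cKOt between times, genotype at ZT4, at ZT16, over both times and interaction, were 17, 7, 13, 10, 49 and 2. With no low-count filter they were 143, 107, 153, 113, 263 and 36. The replicate numbers pair the samples only by label (correlations of deviations 0.0423 to 0.298 with 2 pairs a contrast), and with a replicate block the counts were 34, 28, 23, 28, 140 and 5. With all 3 markers required they were 8, 0, 8, 3, 12 and 1. With the compared groups alone they were 7 and 42 between times. DESeq2 gave 15 between times in cKOt and 4 for the interaction, and at least 10 counts gave 1 for the interaction. Leaving out members with at least 1 UMI each of 2 markers of another cell class (marker doublets) took away 42.1% to 64.6% of a library's members, and the counts were then 16 in cKOt between times, 26 at ZT4 and 83 over both times. Equal numbers of nuclei gave 4 in cKOt between times and 4 at ZT16, Slc8a1 at 1 UMI or more gave 4 at ZT16 and 1 for the interaction, and Slc12a3 at 0 gave 0 for the interaction. The following were chosen after seeing the data. Without the ZT4 replicate 2 libraries the counts were 1 in Ctrl, 4 at ZT4, 16 over both times and 0 for the interaction. Slc8a1-rich members alone gave 33 and 38 between times, 25 at ZT4 and 4 for the interaction. The other members alone gave 3, 0, 3, 1, 13 and 0. Without strict marker doublets (at least 3 UMIs of each marker) there were 26 and 17 between times, 19 at ZT16, 94 over both times and 4 for the interaction. Leaving out each library in turn gave 2 to 27, 2 to 18, 7 to 26, 3 to 15, 17 to 133 and 0 to 3 calls, and 0 to 1, 0 to 2 and 0 to 1 genes whose effect differed from that of other nuclei in Ctrl between times, at ZT4 and at ZT16. In the same 3 contrasts 7, 1 and 3 genes differed from DCT2-like and 26, 11 and 15 from principal-like nuclei. The cause of these shifts was not tested.

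The genotype difference in the share of connecting tubule nuclei (0.0202 points) was -0.0508 with Slc12a3 at 0, -1.78 with distal nuclei as denominator and -0.0170 without marker doublets, and -0.154 to 0.250 with 1 library left out. The time difference (0.424 points) was 0.130 without marker doublets (exact permutation p = 0.429), 0.264 with Slc12a3 at 0, and 0.268 to 0.628 with 1 library left out. The genotype difference in the Aqp2 share (-9.59 points) was -3.85 at 2 UMIs or more (exact permutation p = 0.0571), -7.34 with Slc12a3 at 0 (exact p = 0.0857), -4.93 in Slc8a1-rich members, -11.3 in the others, and -11.0 to -7.85 with 1 library left out (exact p = 0.0571 without Ctrl ZT16 replicate 2, cKOt ZT16 replicate 1 or cKOt ZT16 replicate 2). The time difference in that share (-0.801) was 1.13 without thinning, 1.1 at 2 UMIs or more and 2.55 in Slc8a1-rich members, and -4.27 to 1.69 with 1 library left out.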
